A study of Mus musculus with 15 samples.

Results

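Myelin is the insulating membrane that oligodendrocytes, the myelinating glia of the brain, wrap around axons. The 9 genes described here, Mbp, Mog, Mag, Mobp, Cnp, Mal, Cldn11, Ermn and Opalin, encode proteins of the myelin sheath or of the mature oligodendrocyte. They were taken by gene symbol, out of 36361 genes with values, from the 2 gene tables of an RNA sequencing study of mouse substantia nigra. All mice were naive C57Bl/6J animals; their age and sex are not given in the sources used here. An adeno-associated virus (AAV) was placed by stereotaxic injection into the nigra of 1 side, and both sides were collected 3 weeks later. In 3 mice the vector was AAV-hSYN1-miR-181 at 1.65e10 vector genomes (3 injected and 3 uninjected libraries). In 5 mice it was AAV-hSYN1-GFP at 1e10 vector genomes, with 4 injected and 5 uninjected libraries, since mouse 5 entered with its uninjected side only.

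The contralateral uninjected side of the same animals was the control in both sets, and no sham-injected group is among the samples used here. hSYN1 is the human synapsin 1 promoter, used to drive expression in neurons rather than in oligodendrocytes. The labels do not say which member of the miR-181 family the first vector carries, and the vector-borne microRNA and GFP themselves were not measured here. The sets were prepared, sequenced and normalized apart, the miR-181 set on a HiSeq 4000 and the GFP set on a NovaSeq 6000. Vector, dose, set and sequencer therefore cannot be told apart, and levels are compared only within a set.

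Oligodendrocytes arise from precursor cells that pass through a newly formed stage before they switch on the myelin programme under the transcription factors Sox10, Olig2 and Myrf. Mbp helps to hold compact myelin together, while Mag and Mog face the axon and the outside of the sheath. The substantia nigra lies beside heavily myelinated fibre tracts of the midbrain, and tissue pieces from it carry myelin and its RNA. In bulk tissue, fewer cells of a type and less RNA per cell cannot be told apart.

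The values are normalized abundances that account for transcript length, close in scale to TPM (transcript counts scaled by length and to a common library total), and are called abundance below. Their sum was 970505 to 1040288 per library, and 15022 to 15563 genes reached an abundance of at least 1. Read depth is unknown, so no counting interval can be given. The 4 dopamine neuron markers (Th, Slc6a3, Slc18a2 and Ddc) summed to between 509 and 1837, so they were present in every library, the lowest sum being that of the injected side of miR-181 mouse 2. Markers of serotonin neurons, which lie in the neighbouring raphe, summed to 37.8 to 92.7 in the miR-181 set and to 0.342 to 1.53 in the GFP set. In GFP mouse 1 the pituitary hormone genes Prl, Gh and Pomc made up 4.76% of the uninjected library and 0.238% of the injected one. The 6 microglia markers were higher on the injected side, with 5 of 6 called in the miR-181 set and 4 of 6 in the GFP set. Their summed abundance lay between 289 and 309 on the uninjected and between 509 and 710.4 on the injected sides of the miR-181 mice. On the 2 sides of the GFP mice it lay between 210.3 and 275 uninjected and between 336 and 408 injected. T cell markers were called in the miR-181 set (3 of 4), where their sum lay between 1.19 and 2.39 uninjected and between 9.66 and 51.8 injected. In the GFP set only 1 of the 4 reached the mean abundance needed for testing, and it was not called. Their GFP sums lay between 1.27 and 2.21 uninjected and between 3.10 and 6.45 injected. The astrocyte marker Aqp4 was called in the miR-181 set (1 of 6, limma adjusted p = 0.0340, or 0.0594 with mouse as a term). No neuron or endothelial marker was called in either set. In the miR-181 set 5 of the 6 neuron markers had a limma unadjusted p under 0.05, with a median log2 change of -0.20. In the GFP set 1 of the 6 did, with a median of -0.01.

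Together the 9 myelin genes took 1.30% to 1.87% of a library, and Mbp alone made up 61.7% to 66.7% of that sum. Mbp ranked between 3 and 10 among all genes in every library. The order by mean abundance on the uninjected sides was the same in both sets, namely Mbp, Mobp, Mag, Cnp, Mal, Cldn11, Mog, Ermn and Opalin. In the GFP set the libraries of each neighbouring pair in that order were apart. In the miR-181 set the ranges of Mag and Cnp overlapped, as did those of Cldn11 and Mog, so the order within those pairs was not larger than the spread between mice. The 8 Schwann cell markers, which would mark the myelin of peripheral nerve, summed to between 2.56 and 12.3 in any library.

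**Figure D1:**
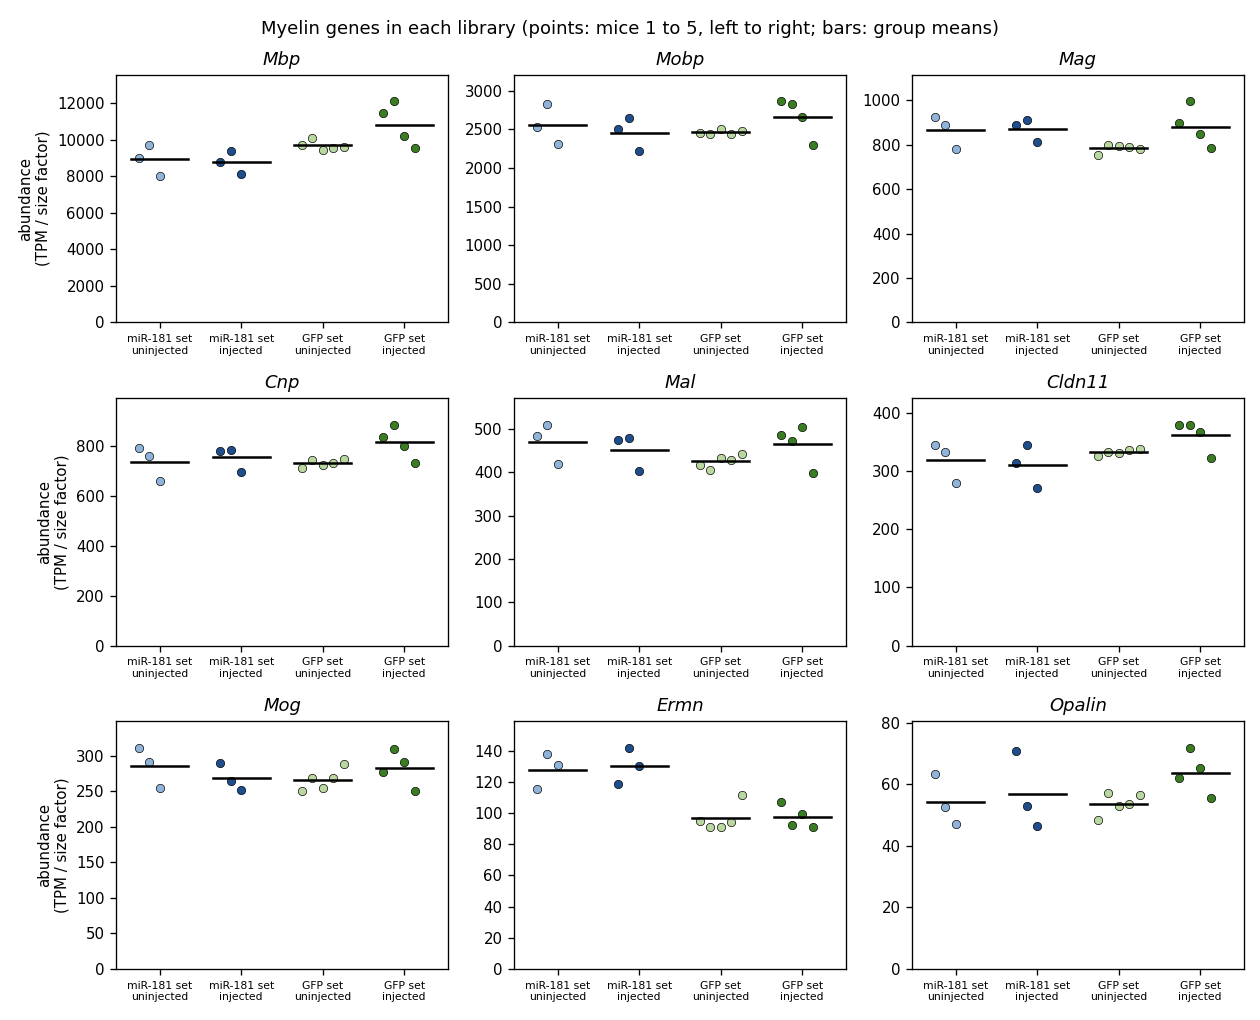
Abundance (TPM divided by a size factor, linear axis from 0) of each of the 9 genes in every library, with 1 point per library in mouse order and a bar at the group mean. Injected and uninjected points overlap in every panel of both sets, and the fourth injected GFP point is the lowest of its group in all 9 panels.

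The first comparison asks what changed in the nigra that received the miR-181 vector. None of the 9 myelin genes passed the test there (limma with Benjamini-Hochberg adjustment over all genes, adjusted p threshold 0.05), against 5.88% of the 15453 genes tested. Their median log2 change on the injected side was -0.02, beside 0.00 over all genes tested, and the single changes ran from -0.09 for Mog to 0.05 for Opalin. None of the 9 reached an unadjusted p under 0.05 either, which 23.5% of all genes did. Estimates were above 0 for 4 genes and below 0 for 5, although with median centring of the libraries all 9 lay below 0. The second comparison asks the same of the GFP vector. Again none of the 9 passed (adjusted p from 0.271 to 0.976 in limma), against 1.35% of the 15274 genes tested. There, however, all 9 estimates were above 0, with a median of 0.13 beside 0.00 over all genes, from 0.01 for Ermn, which lay just below 0 with median centring or quantile normalization, to 0.24 for Opalin. An unadjusted p under 0.05 was reached by 5 of the 9 (Opalin, Cnp, Mag, Cldn11 and Mbp), against 9.52% of all genes. These 5 did not pass the adjusted threshold, so no change of a myelin gene is called in either set.

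**Figure D2:**
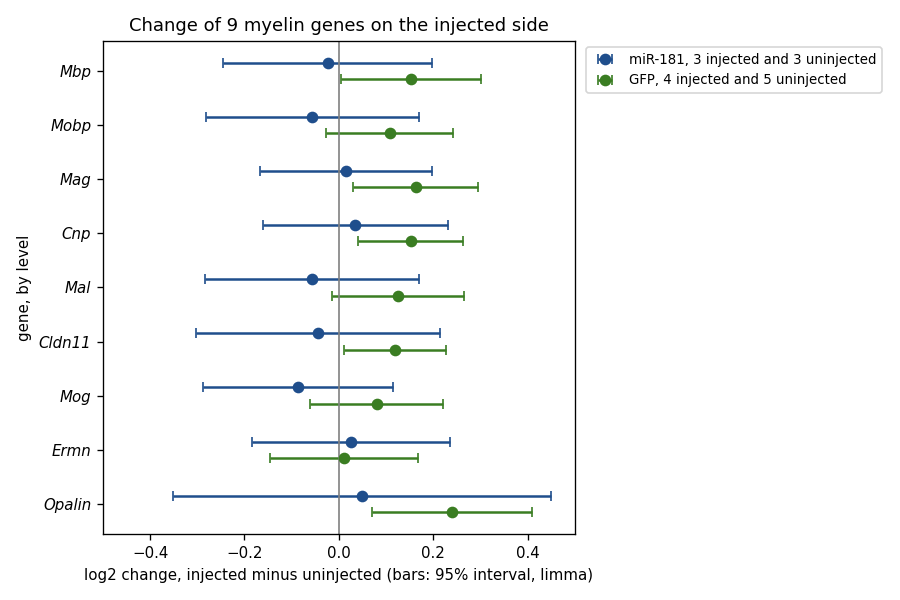
log2 change (injected minus uninjected, log2 of abundance + 0.5) of each gene in the miR-181 set (3 against 3 libraries) and the GFP set (4 against 5), with 95% intervals from limma without mouse as a term. Every miR-181 interval spans 0, and the GFP intervals of Mbp, Mag, Cnp, Cldn11 and Opalin lie just above 0 before adjustment for the number of genes tested.

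Mbp (ENSMUSG00000041607, chromosome 18, 82475146 to 82585637 on the plus strand of GRCm38) encodes myelin basic protein, which joins the cytoplasmic faces of the compact sheath. On the uninjected sides of the miR-181 mice its abundance was 9015, 9705 and 8026 in mice 1 to 3, and on the injected sides it was 8761, 9371 and 8136. Mouse 3 was lowest and mouse 2 highest on both sides, and the sides overlapped. The mean went from 8915 ± 844 (SD, n = 3) to 8756 ± 618 (SD, n = 3), or -0.02 ± 0.09 (SE) on the log2 scale, with a 95% interval from -0.25 to 0.20 (limma adjusted p = 0.908). In the GFP set the uninjected sides of mice 1 to 5 had 9721, 10099.6, 9438, 9542 and 9607, and the injected sides of mice 1 to 4 had 11452, 12090.1, 10178 and 9518. Injected mice 1 to 3 lay above every uninjected library, whereas mouse 4 lay among them. The GFP means were 9681 ± 255 (SD, n = 5) and 10809.8 ± 1172 (SD, n = 4), which is 0.15 ± 0.07 (SE) higher on the log2 scale, with a 95% interval from 0.00 to 0.30 (limma adjusted p = 0.511).

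Mobp (ENSMUSG00000032517, chromosome 9, 120149707 to 120181484, plus strand) encodes a second small basic protein of compact myelin. In the miR-181 mice it stood at 2536, 2827 and 2307 on the uninjected sides and at 2502, 2643 and 2223 on the injected sides. Each injected side was slightly below its own uninjected side, while the ranges overlapped widely, and the log2 change was -0.06 ± 0.10 (SE; limma adjusted p = 0.774). With mouse as a term the miR-181 log2 change of Mobp was -0.06 ± 0.05 (SE; limma adjusted p = 0.496). In the GFP mice the 5 uninjected sides were tightly spaced, at 2458, 2436, 2504, 2434 and 2476, and the injected sides had 2863, 2834, 2659 and 2293. Injected mice 1 to 3 were above all uninjected libraries and mouse 4 was below all of them, which gave 0.11 ± 0.06 (SE; limma adjusted p = 0.635).

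Mal and Cldn11 encode membrane proteins of the sheath. Mal (ENSMUSG00000027375, chromosome 2, 127633226 to 127656695, minus strand) is a raft proteolipid of compact myelin. Its abundance in the miR-181 mice was 483, 510.2 and 419 on the uninjected sides and 475, 478 and 403 on the injected sides, lower on the injected side of every mouse. With mouse as a term the miR-181 log2 change of Mal was -0.06 ± 0.04 (SE; limma adjusted p = 0.419). In the GFP mice its abundance was 417, 406, 433, 429 and 443 on the uninjected sides and 487, 473, 504 and 399 on the injected sides, with mouse 4 again the lowest of all. Cldn11 (ENSMUSG00000037625, chromosome 3, 31149920 to 31164324, plus strand) encodes the claudin that forms the tight junction strands between myelin layers. Its miR-181 values were 346, 332 and 279.7 uninjected and 313, 344 and 272 injected, with overlapping sides. Its GFP values were 326, 333, 331, 337 and 337 uninjected and 380.0, 379, 367 and 322 injected, so mouse 4 lay below the narrow range of the uninjected sides. Mal and Cldn11 had log2 changes of 0.13 ± 0.06 and 0.12 ± 0.05 (SE) in the GFP set (limma adjusted p = 0.589 and 0.465). The corresponding miR-181 changes were -0.06 ± 0.10 and -0.04 ± 0.11 (SE; limma adjusted p = 0.772 and 0.849).

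Mag and Mog encode immunoglobulin-like proteins on the 2 surfaces of the sheath. Mag (ENSMUSG00000036634, chromosome 7, 30899176 to 30914873, minus strand) is the myelin-associated glycoprotein of the innermost layer, which faces the axon. In the miR-181 mice it measured 924, 889.6 and 781 on the uninjected sides and 891, 913 and 814 on the injected sides. Mouse 1 was lower and mice 2 and 3 were higher on the injected side, and the log2 change was 0.02 ± 0.08 (SE; limma adjusted p = 0.931). The GFP mice had 755, 798, 795, 791 and 783 on the uninjected sides and 897, 995, 846 and 785 on the injected sides. Mice 1 to 3 were again above every uninjected library, and mouse 4 lay within them. The estimate for Mag was 0.16 ± 0.06 (SE), with a 95% interval from 0.03 to 0.30 (limma adjusted p = 0.378).

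Mog (ENSMUSG00000076439, chromosome 17, 37010743 to 37023398, minus strand) is the oligodendrocyte glycoprotein of the outermost layer and a late marker of maturation. Its miR-181 values were 311, 290.4 and 255 on the uninjected sides and 289, 264 and 252 on the injected sides. All 3 mice were lower on the injected side and the sides overlapped. With -0.09 ± 0.08 (SE; 95% interval -0.29 to 0.11; limma adjusted p = 0.592) this was the lowest estimate among the 9. With mouse as a term the miR-181 log2 change of Mog was -0.09 ± 0.04 (SE; limma adjusted p = 0.288). Its GFP values were 250.3, 268, 255, 269 and 289 uninjected and 277, 309, 292 and 249.9 injected. The uninjected library of mouse 5 stood above the injected libraries of mice 1 and 4, so the sides overlapped more than for Mag, and the estimate was 0.08 ± 0.06 (SE; limma adjusted p = 0.748).

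Cnp (ENSMUSG00000006782, chromosome 11, 100574904 to 100591729, plus strand) encodes the cyclic nucleotide phosphodiesterase of the non-compact, cytoplasm-filled channels of myelin. In the miR-181 mice its abundance was 793, 758 and 659 on the uninjected sides and 780.4, 784 and 697 on the injected sides, with no order between the sides, and the log2 change was 0.03 ± 0.08 (SE; limma adjusted p = 0.843). In the GFP mice it was 712, 743, 722, 730.1 and 746 uninjected and 835, 886, 801 and 733 injected. It was the only one of the 9 besides Opalin with a higher injected side in all 4 GFP mice, although in mouse 4 the change was 0.01. The estimate over all GFP libraries was 0.15 ± 0.05 (SE), with a 95% interval from 0.04 to 0.26 (limma adjusted p = 0.291).

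Ermn and Opalin mark the mature oligodendrocyte rather than the compact sheath. Opalin (ENSMUSG00000050121, chromosome 19, 41061710 to 41077113, minus strand) encodes a transmembrane sialoglycoprotein of the oligodendrocyte and was the least abundant of the 9. In the miR-181 mice it stood at 63.4, 52.5 and 47.2 on the uninjected sides and at 70.8, 52.9 and 46.5 on the injected sides. Mouse 1 was highest and mouse 3 lowest on both sides. The log2 change was 0.05 ± 0.17 (SE; 95% interval -0.35 to 0.45; limma adjusted p = 0.895). That interval comes from the fit without pairing and so includes the spread between mice. With mouse as a term Opalin had an SE of 0.06 (limma adjusted p = 0.630). In the GFP mice it stood at 48.3, 57.2, 52.7, 53.6 and 56.5 uninjected and at 61.9, 71.8, 65.3 and 55.4 injected. Mice 1 to 3 were above all uninjected libraries and mouse 4 was not. Its log2 change of 0.24 ± 0.08 (SE; 95% interval 0.07 to 0.41; limma adjusted p = 0.271) was the highest estimate and the lowest adjusted p of the 9.

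Ermn (ENSMUSG00000026830, chromosome 2, 58045113 to 58052864, minus strand) encodes ermin, a cytoskeletal protein of late oligodendrocyte processes. Its abundance was 115, 138 and 131 on the uninjected sides of the miR-181 mice and 118, 142 and 130.1 on the injected sides. It was 94.8, 91.3, 91.2, 94.3 and 112 on the uninjected sides of the GFP mice and 107, 92.2, 99.6 and 90.7 on the injected sides. The highest GFP value of Ermn was thus an uninjected library, that of mouse 5. The log2 changes were 0.03 ± 0.09 and 0.01 ± 0.07 (SE) in the miR-181 and GFP sets (limma adjusted p = 0.894 and 0.976). With mouse as a term, which takes mouse 5 out of the estimate, the GFP change of Ermn was 0.06 (limma adjusted p = 0.733).

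Read mouse by mouse, the higher GFP estimates came from mice 1 to 3. All 9 myelin genes were higher on the injected side in each of those mice, with medians of 0.22, 0.22 and 0.15 on the log2 scale. In mouse 4 only Cnp and Opalin were higher and the median was -0.06. Without the injected library of GFP mouse 4 the median change of the 9 genes was 0.20 in place of 0.13, without both libraries of that mouse, an alternative chosen after seeing the data, it was also 0.20, and without both libraries of mouse 1, which carried the pituitary RNA, it was 0.10. None of the 9 genes passed the test in any of these fits, the lowest adjusted p of a myelin gene in any GFP alternative being 0.0508, for Cldn11. Microglia markers did not follow the same order of mice. Their median log2 changes in GFP mice 1 to 4 were 0.54, 0.47, 0.65 and 0.77, so they were highest in the mouse whose myelin genes were not higher. The part of microglia or of dissection in the myelin values was not tested.

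In the miR-181 mice the 9 genes did not all change in 1 direction within any mouse. The injected side was higher for 2, 5 and 3 of the 9 genes in mice 1 to 3, and the medians were -0.02, 0.01 and -0.02. The medians had an SD of 0.0178 over the 3 miR-181 mice and of 0.131 over the 4 GFP mice. Mog, Mobp and Mal were lower on the injected side in all 3 miR-181 mice, and none of the 9 was higher in all 3. With median centring all 9 miR-181 estimates lay below 0. A difference between miR-181 mice was also seen on both sides: in mouse 3, 8 of the 9 genes were below their table mean on each side, with mean deviations of -0.13 uninjected and -0.14 injected. Over the same mice the neuron markers had median log2 estimates of -0.04, -0.36 and -0.21 and the microglia markers of 0.72, 1.27 and 0.93. The dopamine neuron markers had 0.01, -1.21 and 0.02, their sum in mouse 2 being 1154 on the uninjected and 509 on the injected side. In GFP mice 1 to 4 they had 0.02, -0.06, 0.42 and 0.11. The part of these other cells in the myelin values was not tested.

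**Figure D3:**
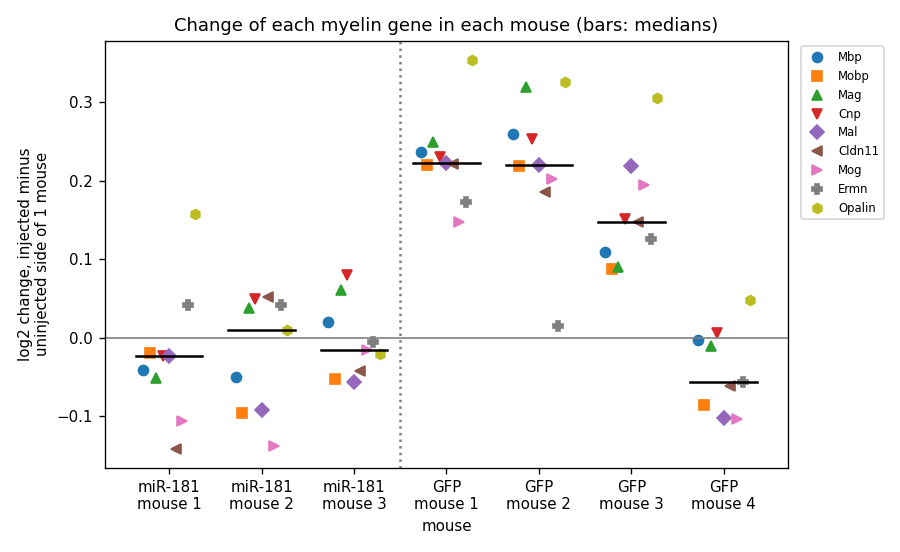
log2 change (injected minus uninjected side of 1 mouse, log2 of abundance + 0.5) of each of the 9 genes in the 3 miR-181 mice and the 4 GFP mice with both sides, with a bar at the median. All points of GFP mice 1 to 3 lie above 0, and those of GFP mouse 4 and the miR-181 mice lie on both sides of 0.

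The vectors were compared through the change per mouse, 3 miR-181 mice against 4 GFP mice. None of the 9 genes passed (limma adjusted p from 0.404 to 0.860), against 0.0194% of the 15451 genes tested. An unadjusted p under 0.05 was reached by none of the 9 and by 14.1% of all genes. All 9 differences were below 0, with a median of -0.17 beside 0.00 over all genes tested. They ranged from -0.21 for Opalin to -0.04 for Ermn. Each stayed below 0 under every alternative run, although that of Ermn reached -0.00196 with 1 mouse left out. Most of the 9 genes vary together and the alternatives reuse the same mice, so these are not separate results. For Mbp the difference was -0.17 ± 0.09 (SE), with a 95% interval from -0.38 to 0.03, and for Mog it was -0.20 ± 0.10 with an interval from -0.43 to 0.03. Differences within these intervals could not be told from 0 with 3 and 4 mice. In the authors' deposited table none of the 9 had a q-value under 0.05, with q-values from 0.723 to 0.975 in the miR-181 set and from 0.162 to 0.997 in the GFP set.

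Across the 15 libraries, with each gene centred on the mean of its table, most of the 9 genes varied together. Over their 36 pairs Pearson's r had a median of 0.758 and reached 0.973 for Mag and Cnp. These are descriptions over libraries from 8 mice that share table, library and, by pairs, animal. Ermn stood apart. Its r with the mean of the 8 others was 0.0648, against 0.704 for Opalin to 0.949 for Cnp, and its lowest pair was -0.260 with Opalin. Among 14815 genes ranked, those outside the 9 that were most like the mean of the 9 were Ttyh2 (r = 0.891), Prr18 (0.891), Cmtm5 (0.889), Hepacam (0.887), Gpr37 (0.863), Qdpr (0.854), Plekhb1 (0.853), Iqck (0.849), Bin1 (0.849) and Glul (0.846). None of these 10 genes was called in either set.

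Around the myelin genes, 75 further genes of the oligodendrocyte lineage were tested, in 6 lists by role. In the miR-181 set 1 of them rose (Cd9) and 3 fell (Ugt8a, Fa2h and Cdk18), beside 4.39% of all genes higher and 1.49% lower, and the median change was 0.01. In the GFP set 2 rose (Cd9 and Apod), none fell and the median was 0.10, beside 1.34% of all genes higher and 0.0131% lower. None of the 75 passed in the comparison of the vectors, where the median was -0.11 and the shares of all genes were 0.0129% higher and 0.00647% lower. By role, the 18 other structure and junction genes had 1 riser in each set, and the 12 lipid genes had 2 that fell in the miR-181 set and 1 that rose in the GFP set. Of the 19 other mature genes 1 fell in the miR-181 set. None of the 10 transcription factors, 8 newly formed markers or 8 precursor markers passed in either set.

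**Figure D4:**
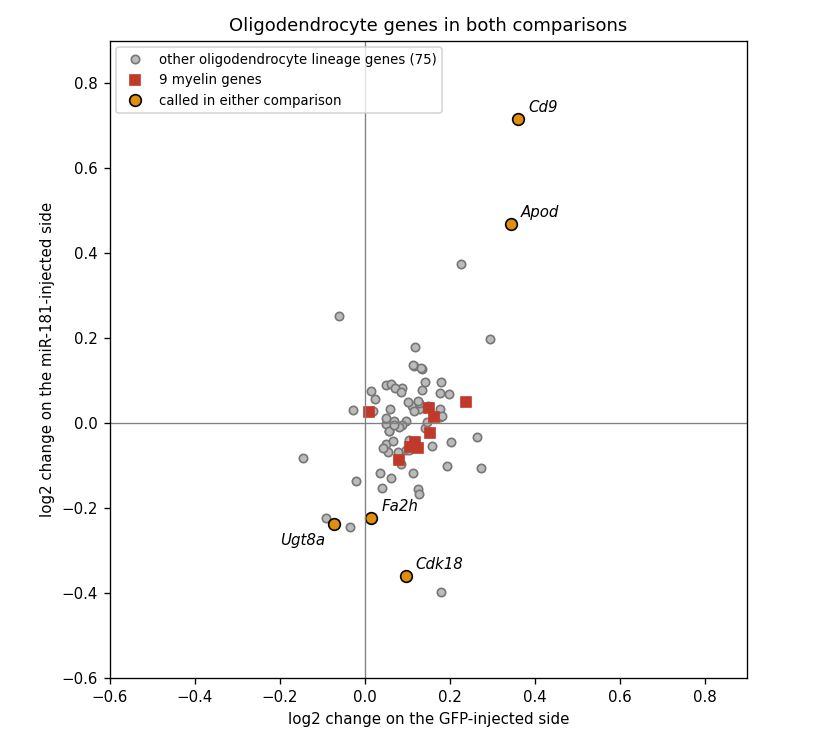
log2 change on the GFP-injected side (horizontal) and on the miR-181-injected side (vertical) of the 9 myelin genes and the 75 other oligodendrocyte lineage genes, 1 point per gene. The 9 myelin genes lie between 0.01 and 0.24 on the GFP axis and between -0.09 and 0.05 on the miR-181 axis, and the 5 genes called in either set are named.

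Cd9 encodes a tetraspanin of myelin membranes that is also made by many other cells, immune cells among them. It stood at 95.7, 91.9 and 97.6 on the uninjected sides of the miR-181 mice and at 137, 179.7 and 156 on the injected sides, and these did not overlap. With 0.72 ± 0.10 (SE) on the log2 scale it was higher in 3 of 3 mice (limma adjusted p = 0.0116). In the GFP mice it went from 86.6 ± 4.16 (SD, n = 5) to 112 ± 7.90 (SD, n = 4), or 0.36 ± 0.06 (SE) on the log2 scale, higher in 4 of 4 mice (limma adjusted p = 0.0104). With mouse as a term the GFP adjusted p was 0.0770, and without GFP mouse 4 it was 0.0869. Microglia markers were higher in the same libraries, and their part in the Cd9 values was not tested. Apod encodes a secreted lipid carrier made by oligodendrocytes and by other glia. It went from 877 ± 46.2 (SD, n = 5) to 1116 ± 114 (SD, n = 4) in the GFP set, or 0.34 ± 0.07 (SE) on the log2 scale, higher in 4 of 4 mice (limma adjusted p = 0.0344). In the miR-181 set Apod had 984, 1163 and 1085 uninjected and 1092, 1849 and 1631 injected. Its log2 change there was 0.47 ± 0.19 (SE; limma adjusted p = 0.190), and with 1 library left out it lay between 0.31 and 0.69, with adjusted p from 0.00565 (without injected mouse 1, the only fit that called it) to 0.414.

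The 3 genes that fell on the miR-181 side belong to lipid synthesis or to the mature cell. Ugt8a encodes the ceramide galactosyltransferase that makes galactosylceramide, the main glycolipid of myelin. Its values were 101, 105 and 103 uninjected and 89.7, 86.2 and 86.1 injected, without overlap, or -0.24 ± 0.04 (SE) on the log2 scale (limma adjusted p = 0.0265). Fa2h encodes the fatty acid hydroxylase that supplies the hydroxylated chains of those lipids. Its values were 120.5, 126 and 116 uninjected and 103, 104 and 103 injected, also without overlap, or -0.22 ± 0.04 (SE) on the log2 scale (limma adjusted p = 0.0383). Cdk18, a kinase gene expressed in mature oligodendrocytes, had 57.9, 54.8 and 51.9 uninjected and 44.3, 40.6 and 43.0 injected, with no overlap. Its log2 change was -0.36 ± 0.06 (SE; limma adjusted p = 0.0230). All 3 were lower on the injected side in 3 of 3 mice, while in the GFP set their changes were -0.07, 0.02 and 0.10 (limma adjusted p = 0.742, 0.971 and 0.743).

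The difference between the vectors was -0.44 ± 0.08 (SE) for Cdk18 (limma adjusted p = 0.196), -0.21 ± 0.07 for Ugt8a (0.285) and -0.26 ± 0.10 for Fa2h (0.324), so none of these falls is shown to be particular to miR-181. With mouse as a term the miR-181 adjusted p was 0.0584 for Ugt8a, 0.0610 for Fa2h and 0.0374 for Cdk18. Without the filter on low values it was 0.0513 for Cdk18 and 0.0614 for Fa2h, and without the trend it was 0.0560 for Cdk18, 0.0943 for Fa2h and 0.0739 for Ugt8a, so each of the 3 calls was lost under at least 1 other processing choice. Leaving out 1 of the 6 libraries ended the call of Ugt8a, Fa2h and Cdk18 for every library except injected mouse 1, with adjusted p up to 0.126, 0.150 and 0.107. The log2 changes themselves stayed between -0.26 and -0.22 for Ugt8a, -0.25 and -0.19 for Fa2h and -0.40 and -0.32 for Cdk18. Cd9 lost its miR-181 call without any 1 uninjected library or injected mouse 3 (adjusted p up to 0.0705). Apod lost its GFP call without any 1 of 7 of the 9 libraries (adjusted p up to 0.104), and also without the filter (0.0815), with median centring (0.0525) and without the trend (0.0831). In the authors' deposited table the miR-181 q-values were 0.000419 for Cdk18, 0.000448 for Ugt8a, 0.00189 for Fa2h, 5.72e-08 for Cd9 and 0.241 for Apod. Its GFP q-values were 0.000698 for Apod and 2.57e-07 for Cd9. That table also gave miR-181 q-values under 0.05 to Hhip (0.00136, higher), Cacng4 (0.0409, lower) and Gsn (0.0430, lower), which limma did not call.

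Other genes of the lineage were measured without a limma call. Of the transcription factors that drive the myelin programme, Myrf had log2 estimates of 0.05 and 0.10 in the miR-181 and GFP sets, Sox10 of 0.01 and 0.18, and Olig2 of -0.07 and 0.08, none called. Nkx6-2, a homeobox factor of oligodendrocytes, had 0.26 ± 0.15 (SE) in the GFP set (limma adjusted p = 0.627). The precursor receptor gene Pdgfra had -0.09 and 0.08. The precursor genes Cacng4 and C1ql1 had miR-181 changes of -0.24 ± 0.08 and -0.22 ± 0.09 (SE; limma adjusted p = 0.127 and 0.215). Among newly formed markers, Itpr2 had 0.30 ± 0.11 (SE; limma adjusted p = 0.397) and Neu4 0.20 ± 0.09 (0.503) in the GFP set.

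A microRNA represses messages whose 3' untranslated region pairs with its seed, bases 2 to 8 of the mature strand. The 4 mature miR-181 strands of the mouse, as RefSeq gives them on GRCm38.p6, are shown because any of them may be the vector's insert, and the seed in capitals is the same in all 4.
miR-181a-5p: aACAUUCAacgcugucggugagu
miR-181b-5p: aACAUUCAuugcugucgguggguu
miR-181c-5p: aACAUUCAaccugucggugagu
miR-181d-5p: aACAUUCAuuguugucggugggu

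For each gene the longest 3' untranslated region among its GENCODE M21 transcripts was searched on the transcript strand. The search was for the 7-base matches TGAATGT and GAATGTA and for the 8-base TGAATGTA, which holds both. A match was present in 2 of the 9 myelin genes, Ermn and Opalin, beside 24.8% of the 14335 genes tested in the miR-181 set that have an annotated region. The other 7, Mbp among them, had none in the region searched, and their other annotated transcripts were not searched. Of the 3 genes that fell on the miR-181 side, Ugt8a and Cdk18 held 1 match each and Fa2h held none. The matches are shown with their flanks so that they can be read against the seed, with the match in capitals.
Ermn, chr2:58047720-58047748 (minus strand): cggggaccgagGAATGTAgggagtgttaa
Opalin, chr19:41062690-41062718 (minus strand): gaagatccaccTGAATGTggcccagcatc
Ugt8a, chr3:125865380-125865408 (minus strand): gtatgtatataTGAATGTgaaaacaatgt
Cdk18, chr1:132113694-132113722 (minus strand): cccactgactgTGAATGTcgtgactcaga

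The miR-181 changes of Ermn and Opalin were 0.03 ± 0.09 and 0.05 ± 0.17 (SE) on the log2 scale. With median centring they were -0.04 and -0.02. Cnp and Mag, which held no match, had changes of 0.03 and 0.02, and none of these genes was called. Whether a match bears on these changes was not tested. A match is a stretch of letters in the annotation and was not tested for binding.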

How the data were processed

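Substantia nigra tissue from both sides of 8 mice gave 15 polyA-selected, stranded RNA sequencing libraries, grouped by vector and side per the labels. Reads were quantified with kallisto 0.43.1 and sleuth 0.30.0 on GRCm38, per the submitters' processing notes. The deposited signal values are the authors' normalized abundances, read here as TPM over 1 size factor for each library, and each of the 2 tables was normalized apart. The deposited coefficients are on the natural log scale, and the authors' p-values and q-values were used only for the statements on their table. Of the 56305 entries in each table, 36660 had values, and 299 that repeated the symbol and all values of another entry were left out.

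Changes were tested with limma 3.58.1 (R 4.3.3) with an intensity trend on log2(value + 0.5), keeping genes whose mean reached 1, and p-values were adjusted over all of them by the Benjamini-Hochberg method. Log2 changes are on that scale and understate those of genes with low values. The vectors were compared by limma without trend on the change per mouse. The labels pair the 2 sides by animal. Over all genes tested, their deviations from the group means correlated with r from 0.140 to 0.257 in the miR-181 mice. In the GFP mice r lay between 0.0177 and 0.192. The main fits within each set left mouse out, so their SEs and intervals include the spread between mice. Mouse was a term only in an alternative, given where it ends a call and for some other genes. In the miR-181 set the mouse term lowered the SE of every myelin gene. Those SEs then ran from 0.04 for Mal to 0.06 for Mbp, in place of 0.08 for Mag to 0.17 for Opalin. In the GFP set it did not lower all of them. The scripts were tested on simulated data.

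All 9 genes are named, with Myrf, Sox10, Olig2 and Pdgfra, up to 4 called genes per other oligodendrocyte list or otherwise the 2 with the smallest p per comparison, and the 10 genes most like the mean of the 9. The genes and lists were chosen with earlier results of these data known, so counts over them are descriptions. Some items are not reported here. Other pseudocounts (0.1 and 1), filters (none, and a mean of at least 5), median centring, quantile normalization, no trend, the mouse term and leaving out libraries or mice were tried.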

Additional observations from a re-analysis of the deposited data

Results flagged for a closer look

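In the 5 uninjected GFP libraries, that of mouse 5 lay far above the others for 3 genes, Ermn at 112, Ugt8a at 102 and Lhfpl3, a precursor marker, at 44.9. For Ermn the other 4 libraries lay between 91.2 and 94.8, for Ugt8a between 86.5 and 88.2, and for Lhfpl3 between 38.0 and 39.9. Mouse 5 has no injected library here. In all, 52 groups were examined for such a sample, and chance gives about 1 in 20, so 3 such genes are near the number that chance would give. All 3 came from the same library.

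For Olig1 and Pdgfra every miR-181 mouse was lower and every GFP mouse higher on the injected side. Of the other lineage genes, Gsn and Nipal4 had the same directions, so the pattern was not particular to Olig1 and Pdgfra. The difference between the vectors was -0.23 on the log2 scale for Olig1 (limma adjusted p = 0.326) and -0.17 for Pdgfra (adjusted p = 0.331), so neither passed over all genes.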

How the results depend on the processing

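None of the 9 myelin genes was called in any of the 3 comparisons under any alternative run. Their miR-181 median of -0.02 became -0.0893 with median centring and -0.0475 with quantile normalization, and lay between -0.0977 and 0.0296 when 1 library was left out. Median centring moved the median of all genes in the miR-181 set to -0.06, and its calls from 678 higher and 230 lower to 634 and 468. With mouse as a term (the replicate block) the medians of the 9 were -0.02 and 0.14 in the miR-181 and GFP sets. The block ended the GFP call of Cd9 and the miR-181 calls of Ugt8a, Fa2h and Aqp4, given with those genes, and not those of Cdk18, Apod or, in the miR-181 set, Cd9.

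Estimates near 0, none of them called, changed sign. With median centring the miR-181 changes became -0.0302 for Cnp, -0.0391 for Ermn, -0.0499 for Mag, -0.0143 for Myrf, -0.016 for Opalin, -0.0621 for Plekhb1, -0.0176 for Qdpr and -0.0514 for Sox10. With quantile normalization they became -0.0151 for Cnp, -0.0475 for Mag, 0.195 for Mbp, -0.0506 for Plekhb1, -0.0187 for Qdpr and -0.00173 for Sox10. In the GFP set median centring gave -0.00574 for Ermn, -0.00147 for Fa2h and -0.00204 for Fyn, quantile normalization -0.00369 for Ermn and -0.00813 for Fa2h, and leaving out mouse 1 -0.0403 for Ermn and -0.00583 for Fa2h. Median centring gave Lhfpl3 a difference of -0.0271 between the vectors.

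Leaving out 1 library, the miR-181 changes ran from -0.136 to 0.0468 for Cldn11, -0.0431 to 0.0907 for Cnp, -0.0473 to 0.0916 for Ermn, -0.0442 to 0.0345 for Gpr37, -0.0564 to 0.0648 for Mag, -0.139 to 0.024 for Mal, -0.0977 to 0.0393 for Mbp and -0.128 to 0.0185 for Mobp. They ran from -0.0108 to 0.101 for Myrf, -0.122 to 0.0234 for Nkx6-2, -0.146 to 0.0439 for Olig2, -0.12 to 0.18 for Opalin, -0.048 to 0.0627 for Plekhb1 and -0.0913 to 0.0832 for Sox10. GFP changes ran from -0.0345 to 0.0642 for Ermn, -0.0547 to 0.101 for Fa2h and -0.00988 to 0.0492 for Fyn. With 1 mouse left out, the difference of Lhfpl3 between the vectors ran from -0.061 to 0.0684. Mog, Olig1 and Pdgfra kept their sign in each set under all of these.

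Over all genes, 908 were called in the miR-181 set, 315 without a filter, 449 without the trend and 117 to 1924 with 1 library left out. In the GFP set 206 were called, 136 with a mean of at least 5, 124 with the replicate block, 73 without mouse 4 and 108 to 255 with 1 library left out. In the comparison of the vectors 3 were called, none with a pseudocount of 1, no filter or quantile normalization, 1 with a mean of at least 5 or with the trend, and 0 to 72 with 1 mouse left out. The cause of these shifts was not tested. Read depth is unknown, and the number of mice limits the precision.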
